A study of Mus musculus with 6 samples.

Results

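The genes described here were those of the matrix metalloproteinase system of mouse astrocytes, 6 genes that encode matrix metalloproteinases (Mmp2, Mmp3, Mmp9, Mmp11, Mmp14 and Mmp19) and 4 that encode inhibitors of these enzymes (Timp1, Timp2, Timp3 and Reck). They were taken by symbol from the deposited tables, which list 23282 gene rows with symbols in capitals (MMP2, MMP3, MMP9, MMP11, MMP14, MMP19, TIMP1, TIMP2, TIMP3 and RECK), and each of the 10 was found on 1 row. RNA had been sequenced from murine astrocytes, Ink4a-/- in the labels and Ink4a/Arf-/- in the study's methods, that carried either the empty vector pcDNA3.1-puro (control, 3 libraries) or the vector with JAG1, pcDNA3.1-JAG1-puro (JAG1-overexpressing, 3 libraries). Both groups thus share the loss of Ink4a and, by the methods, of Arf, the products of the locus Cdkn2a, and the control, although its genotype label reads WT, is wild-type only with respect to the JAG1 vector. The labels name no separate transfections, clones or animals, so the p-values given here measure the spread between these libraries, which may be technical. QuantSeq libraries sample each mRNA once, near its 3' end. Long transcripts therefore gain no extra reads, and levels of different genes may be set beside each other without a length term.

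Matrix metalloproteinases are zinc-dependent proteases that cut collagens, laminins, proteoglycans and cell surface proteins. They are made as inactive proenzymes and are held in check by tissue inhibitors of metalloproteinases, the TIMPs, which block the active site, and by the membrane-anchored glycoprotein Reck. In the brain, the gelatinases Mmp2 and Mmp9 are known for cutting the basement membrane of blood vessels, and in glioma the membrane-bound Mmp14 is known as an activator of proMmp2 at the cell surface, a step in which Timp2 acts as a bridge between both enzymes. The comparison asks how the transcripts of proteases and inhibitors stand in astrocytes that overexpress JAG1, a ligand of NOTCH receptors, in a study on invasion.

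Of the 6 protease transcripts, 4 fell, where 27.7% of all tested genes did. Of these 4, Mmp2 and Mmp9 were tested through the control libraries alone. Mmp19 did not pass the test and Mmp3 had too few reads for it, while the inhibitor transcripts were divided. Mmp14, which made up most of the protease reads, fell 2.67-fold in JAG1-overexpressing astrocytes, Mmp2 fell 7.65-fold, Mmp9 was at least 14.3-fold lower and Mmp11 fell 1.53-fold. Among the inhibitors, Timp2 fell 1.39-fold, Timp1 rose from 50.6 to 75.9 CPM (reads per 1e6 reads) and Timp3 did not pass the test. Summed over the genes, there were 0.558 ± 0.0439 protease reads for each inhibitor read in control and 0.256 ± 0.0208 in JAG1-overexpressing astrocytes (SD, n = 3). That ratio with JAG1 was 0.458 times that in control, and 0.576 times with every MMP gene against every TIMP gene and Reck. Outside the 10 genes, Mmp16 rose from 0 to 9.32 CPM, and Mmp24, with 60.7 and 67.7 CPM, did not pass the test.

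The libraries held between 14341634 and 20489062 reads counted on genes. Values are CPM after TMM normalization, and 3 reads, taken as the limit of detection, equal 0.148 to 0.206 CPM depending on the library, a limit that covers counting error only. Of 11712 genes with enough reads to be tested by edgeR's quasi-likelihood test, 55.1% passed a Benjamini-Hochberg adjusted p of 0.05, 27.4% as higher and 27.7% as lower. The median log2 fold change over all of them was 0.0039. Jag1 itself (chr2:137081456-137116644, build GRCm38) had 8.99, 10.8 and 11.2 CPM in the control and 15.2, 13.6 and 13.8 CPM in the JAG1-overexpressing libraries. The groups did not overlap, and Jag1 rose by 0.46 on the log2 scale (SE 0.11, edgeR adjusted p = 0.00446). Whether transcripts of the vector carry the 3' end counted here is not given in the sources used here, so this value is no measure of the vector. Cdkn2a had at most 5 reads in any library.

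Markers of cell types were read from lists. Of 12 astrocyte markers, the defining genes Gfap and Aqp4 had 0 reads in all libraries, and Slc1a2 and Slc1a3 had at most 2. Of the 8 astrocyte markers tested, 6 fell and Nfia rose, where 27.7% of all tested genes fell and 27.4% rose. Sox9, among the falls, went from 181 ± 4.64 to 18.0 ± 1.25 CPM (SD, n = 3). Vim, an intermediate filament gene of many mesenchymal and glial cells, had 3106 ± 221 CPM in control and 3213 ± 38.3 CPM in JAG1-overexpressing astrocytes. The 10 fibroblast and mural cell markers summed to between 821 and 857 CPM in control and between 317 and 364 CPM in JAG1-overexpressing libraries. Of the 7 of them tested, 5 fell and Col1a2 rose, against the same 27.7% and 27.4% of all tested genes. Lum, Cspg4 and Rgs5 had 0 reads in every library. The markers Aldoc, S100b and Dcn, which fell, reached the minimum of reads for testing in every control library but not in every JAG1-overexpressing library. The sums of the 11 microglia and macrophage markers (5.86 to 6.44 CPM in control, 3.58 to 4.75 CPM with JAG1), of the 7 endothelial markers (1.38 to 2.20 and 1.30 to 1.46 CPM) and of the 7 oligodendrocyte lineage markers (2.14 to 3.27 and 0.668 to 1.20 CPM) were low in both groups. The 7 neuron markers summed to 96.9 to 107 CPM in control and 58.3 to 61.4 CPM with JAG1, nearly all of it from Tubb3 and Map2. These moved in opposite directions, Tubb3 from 78.2 ± 4.67 to 8.40 ± 0.550 CPM and Map2 from 25.1 ± 1.07 to 51.3 ± 1.13 CPM (SD, n = 3). Rbfox3, Snap25, Syt1, Gad1 and Slc17a7 had at most 1 read in any library. The summed fibroblast and mural cell markers thus moved in the same direction as the proteases. So did the sums of the microglia and macrophage, oligodendrocyte lineage and neuron markers, and 6 of the 8 tested astrocyte markers. The direction is therefore not particular to 1 cell type list, and the part of any list in the results below was not tested. In bulk RNA, fewer cells that express a gene and less RNA per cell cannot be told apart.

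Start regions from RefSeq (GRCm38.p6, the build the submitters' notes name) covered 250 bases before to 50 bases after the transcription start, and 7 of the 10 genes matched an entry. They are shown for the most abundant protease, Mmp14, for both inhibitors that passed the test, Timp1 and Timp2, and for Mmp3. Capitals mark the letters TGAGTCA, the consensus of AP-1 (dimers of FOS and JUN proteins), the letters GGGCGG, the core of the Sp1 consensus, or their reverse complements, as a search of both strands found them. No match to GTGGGAA, the letters bound by the NOTCH mediator RBPJ, was found in these 7 windows, which says only that these letters are not in them.
Mmp14, chr14:54431348-54431647, plus strand: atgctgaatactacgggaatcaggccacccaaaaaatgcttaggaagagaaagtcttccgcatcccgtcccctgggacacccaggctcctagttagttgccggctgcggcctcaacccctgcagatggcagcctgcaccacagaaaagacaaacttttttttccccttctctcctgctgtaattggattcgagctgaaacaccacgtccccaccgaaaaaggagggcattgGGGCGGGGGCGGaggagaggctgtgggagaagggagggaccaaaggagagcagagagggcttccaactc
Timp1, chrX:20869916-20870215, plus strand: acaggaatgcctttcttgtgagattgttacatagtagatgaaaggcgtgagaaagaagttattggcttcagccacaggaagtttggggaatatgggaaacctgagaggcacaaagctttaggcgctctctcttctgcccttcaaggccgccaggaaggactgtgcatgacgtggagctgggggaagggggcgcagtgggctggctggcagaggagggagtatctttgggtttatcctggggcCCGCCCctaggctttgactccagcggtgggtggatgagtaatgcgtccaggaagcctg
Timp2, chr11:118355362-118355661, minus strand: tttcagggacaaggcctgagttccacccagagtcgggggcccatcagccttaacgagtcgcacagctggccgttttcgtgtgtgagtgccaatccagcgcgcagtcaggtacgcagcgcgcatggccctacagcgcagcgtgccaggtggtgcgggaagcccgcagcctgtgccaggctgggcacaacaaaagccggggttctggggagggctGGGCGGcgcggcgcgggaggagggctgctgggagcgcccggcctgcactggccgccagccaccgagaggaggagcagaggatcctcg
Mmp3, chr9:7445572-7445871, plus strand: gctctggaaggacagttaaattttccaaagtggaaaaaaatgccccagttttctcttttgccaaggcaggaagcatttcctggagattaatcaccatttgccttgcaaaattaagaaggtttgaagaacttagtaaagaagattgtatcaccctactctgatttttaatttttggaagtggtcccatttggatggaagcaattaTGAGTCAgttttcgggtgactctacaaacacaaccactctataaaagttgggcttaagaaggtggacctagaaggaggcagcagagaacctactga
The Mmp14 window held 2 adjoining GGGCGG matches that begin 19 and 13 bases before the start. The Timp1 window held 1, on the other strand, 8 bases before the start, and the Timp2 window held 1, which begins 37 bases before it. Timp1, which rose, and Timp2, which fell, thus shared this motif, as did Mmp11, Timp3 and Reck, and it occurs in 35.7% of the 32851 start regions of the table. The AP-1 letters were found only in Mmp3, among these 7 genes, beginning 46 bases before the start, and occur in 5.2% of all start regions, whereas the RBPJ letters occur in 6.38%. Only exact letters were searched, so a site that differs from them in any letter, in Timp1 or elsewhere, would not be marked.

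Mmp14 (chr14:54431612-54445364), the membrane-type protease that cuts collagen at the cell surface and activates proMmp2, had 484, 439 and 412 CPM in the control libraries and 181, 159 and 161 CPM in the JAG1-overexpressing libraries. The lowest control library held more than 2 times the CPM of the highest JAG1-overexpressing one. The log2 fold change was -1.41 (SE 0.07, edgeR adjusted p = 2.86e-08). It rested on 25869 control reads and 8590 JAG1-overexpressing reads, the deepest count of any of the proteases. Across control astrocytes Mmp14 had the second highest level of the 10 genes, below Timp2 alone, and in JAG1-overexpressing astrocytes it also stood below Timp3.

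Mmp2 (chr8:92827291-92853420), the gelatinase that Mmp14 activates, was already a minor transcript in control. Its 66, 90 and 81 control reads stood against 10, 10 and 7 reads in JAG1-overexpressing libraries, or 4.11 ± 0.794 against 0.537 ± 0.136 CPM (SD, n = 3). The groups did not overlap, and the log2 fold change was -2.94 (SE 0.28, edgeR adjusted p = 4.47e-06). Mmp9 (chr2:164940780-164955850), the second gelatinase, had 57, 56 and 58 reads in control and 2, 0 and 1 reads in JAG1-overexpressing libraries. All 3 JAG1-overexpressing libraries were thus under the limit of detection, and against 3 reads in the shallowest of them Mmp9 was at least 14.3-fold lower (edgeR adjusted p = 1.17e-06). Both gelatinases together fell from 7.06 ± 0.901 to 0.591 ± 0.101 CPM (SD, n = 3). Mmp2 and Mmp9 reached the minimum of reads for testing through the control libraries alone. At their JAG1-overexpressing levels, only a higher control level could have let them be tested.

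**Figure D1:**
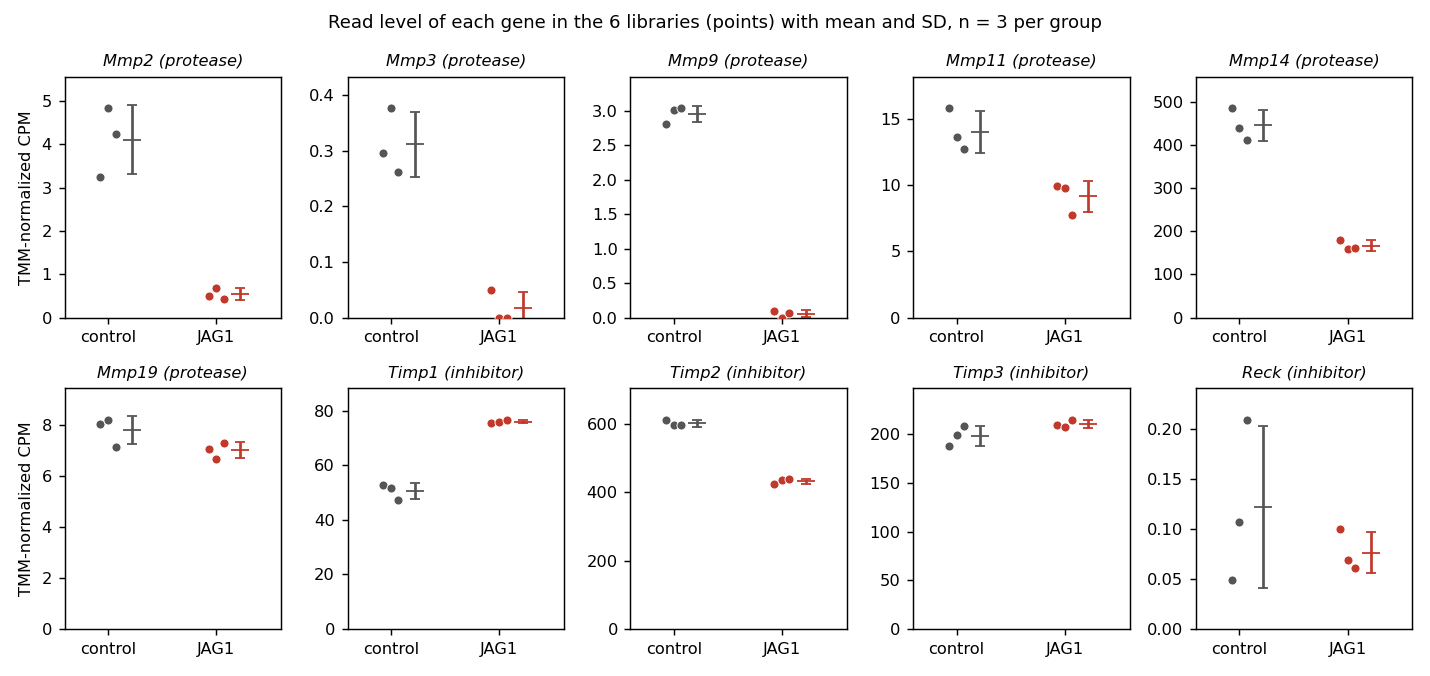
Each panel plots 1 gene, with TMM-normalized CPM on a linear axis from 0 and the 3 control (grey) and 3 JAG1-overexpressing (red) libraries as points beside their mean and SD. Mmp2, Mmp3, Mmp9, Mmp11 and Mmp14 have every JAG1-overexpressing library below every control library, as does Timp2, Timp1 has them above, and Mmp19, Timp3 and Reck overlap.

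Mmp3 (chr9:7445822-7455975), a stromelysin with broad activity on matrix proteins, had too few reads to be tested. It had 6, 7 and 5 reads in control and 1, 0 and 0 in JAG1-overexpressing libraries, and was at least 1.51-fold lower against the limit of detection. Mmp11 (chr10:75923222-75936496), a stromelysin that furin activates inside the cell, had 15.8, 13.6 and 12.7 CPM in control and 9.92, 9.77 and 7.77 CPM in JAG1-overexpressing libraries. The groups lay apart by less than for Mmp14, with a log2 fold change of -0.62 (SE 0.13, edgeR adjusted p = 0.00162). Chchd10, which lies on the opposite strand and shares 155 exon bases with Mmp11, had 22, 34 and 28 reads in control and 490, 307 and 459 with JAG1. It moved the other way, and whether any of its reads were counted on Mmp11 was not tested.

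Mmp19 (chr10:128790910-128800824), a secreted protease of basement membrane proteins, did not pass the test. It had 8.05, 8.21 and 7.17 CPM in control and 7.08, 6.67 and 7.29 CPM in JAG1-overexpressing libraries, with a log2 fold change of -0.15 (95% interval -0.41 to 0.11, edgeR adjusted p = 0.292). The value of Mmp19 is uncertain. The 3' end of each gene lies in an exon of the other, Tmem198b being on the opposite strand, with 789 exon bases in common, and the counts of both genes ran together in every library. Mmp19 had 163, 153, 137, 142, 97 and 120 reads where Tmem198b had 157, 149, 133, 139, 93 and 118. The same reads may therefore stand in both rows, and which gene they came from cannot be told from these counts.

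Timp2 (chr11:118301069-118355740), which inhibits Mmp2 and also docks proMmp2 to Mmp14, was the most abundant of the 10 transcripts in both groups. It had 612, 597 and 596 CPM in control and 425, 435 and 439 CPM in JAG1-overexpressing libraries. The groups lay far apart against their spread, with a log2 fold change of -0.48 (SE 0.04, edgeR adjusted p = 4.60e-06). Timp1 (chrX:20870166-20874735), a secreted inhibitor that binds proMmp9 and inhibits Mmp14 poorly, had 52.8, 51.7 and 47.3 CPM in control and 75.6, 75.7 and 76.6 CPM in JAG1-overexpressing libraries. Its log2 fold change was 0.59 (SE 0.06, edgeR adjusted p = 1.42e-05), the only rise that passed the test among the 10 genes. Timp1 lies in an intron of Syn1 on the other strand. Syn1 went the other way, with 178, 155 and 144 reads in control and 97, 69 and 80 with JAG1, and the exons of both genes share no base.

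Timp3 (chr10:86300372-86349506), which binds to the matrix and also inhibits ADAM sheddases, had 188, 199 and 209 CPM in control and 210, 208 and 215 CPM in JAG1-overexpressing libraries. The groups overlapped, and the log2 fold change was 0.09 (95% interval -0.03 to 0.20, edgeR adjusted p = 0.187). Syn3, which shares 1733 exon bases with it on the other strand, had between 26 and 66 reads in a library, against 3017 to 4204 reads on Timp3. The 3' end of Timp3 lies in an exon of Syn3, and whether reads of either gene were counted on the other was not tested. Reck (chr4:43875530-43944806), the membrane-anchored inhibitor of Mmp2, Mmp9 and Mmp14, had 1, 2 and 4 reads in control and 2, 1 and 1 in JAG1-overexpressing libraries. A difference in Reck was not detectable at this depth.

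Of the 8 genes with enough reads, 6 passed the adjusted threshold, where 55.1% of all tested genes did. Of the 5 proteases tested, 4 were lower, against 27.7% of all tested genes, and of the 3 inhibitors 1 was lower and 1 higher. The median log2 fold change was -1.41 over the 5 proteases, 2 of which were tested through the control libraries alone, and 0.09 over the 3 inhibitors. Mmp2, Mmp9 and Mmp14 fell at least 2-fold, as 8.49% of all tested genes did. None rose as far, where 5.46% of all tested genes rose and 13.9% moved at least 2-fold in either direction. Groups without overlap were seen for 6 of the 8, where 62.0% of all tested genes had them, 30.9% as lower and 31.1% as higher. The 10 genes lie on chromosomes 2, 4, 8, 9, 10, 11, 14 and X, whose tested genes had a median log2 fold change between -0.03 and 0.03. None lies on chromosome 15 or 19, where this median was -0.53 and 0.61. The chromosome Y genes read as checks, Ddx3y, Eif2s3y, Kdm5d and Uty, were 2.01-, 2.54-, 1.97- and 3.02-fold higher with JAG1. Whether these shifts bear on the 10 genes was not tested.

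**Figure D2:**
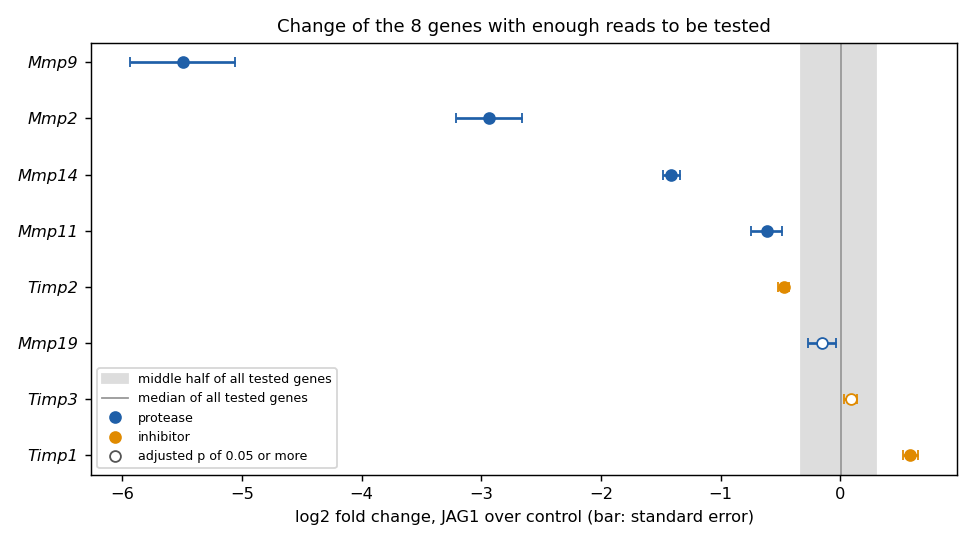
The log2 fold change of JAG1-overexpressing over control astrocytes (x axis) is plotted for the 8 tested genes with its standard error, blue for proteases and orange for inhibitors, open where the adjusted p was 0.05 or more, over a grey band from the lower to the upper quartile of all tested genes. Mmp9, Mmp2, Mmp14, Mmp11 and Timp2 lie to the left of the band, Timp1 to the right and Mmp19 and Timp3 within it; the fitted value of Mmp9, whose JAG1-overexpressing libraries hold 0 to 2 reads each, depends on the prior count.

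The balance of proteases and inhibitors was described by their summed CPM, with no test, since both sums hold the genes already given. The 6 proteases summed to 515, 469 and 439 CPM in control and to 198, 176 and 177 CPM in JAG1-overexpressing libraries. Mmp14 supplied 93.8 ± 0.272% of this sum in control and 90.9 ± 0.526% with JAG1 (SD, n = 3), so that the sum largely follows 1 gene. The other 5 proteases together went from 29.2 ± 1.58 to 16.8 ± 1.09 CPM (SD, n = 3), which is also lower. The 4 inhibitors summed to 853, 847 and 852 CPM in control and to 710, 718 and 731 CPM with JAG1. Their makeup shifted within this smaller change. Timp2 went from 70.7 ± 0.949% to 60.1 ± 0.371% of the inhibitor reads, Timp3 from 23.3 ± 1.23% to 29.3 ± 0.334% and Timp1 from 5.95 ± 0.343% to 10.6 ± 0.0822% (SD, n = 3).

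**Figure D3:**
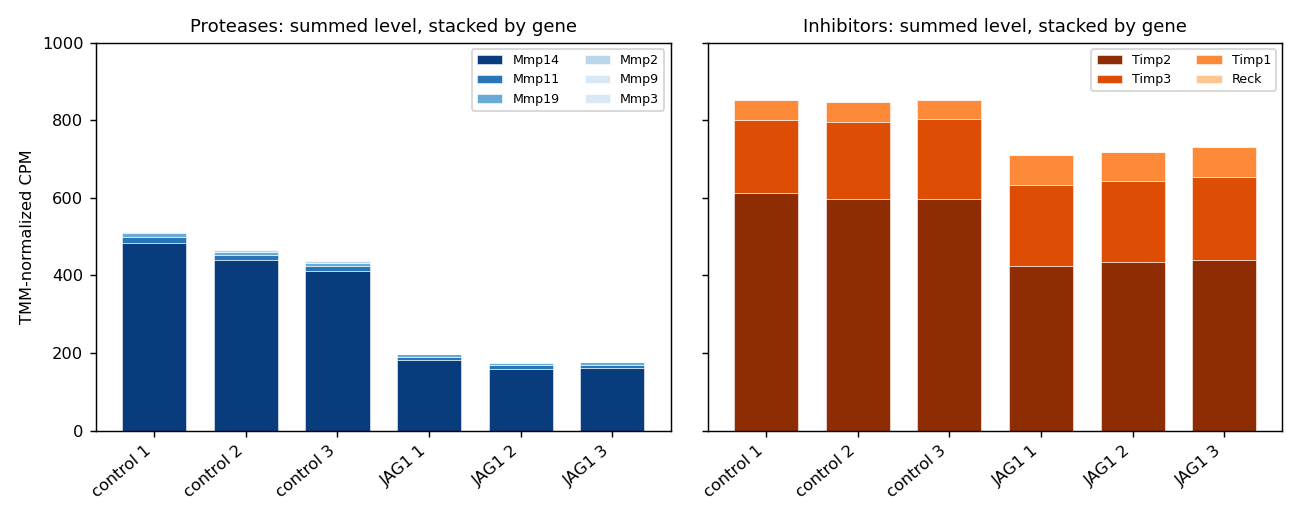
Bars give the summed TMM-normalized CPM of the 6 proteases (left) and the 4 inhibitors (right) in each of the 6 libraries, stacked by gene, on 1 shared axis from 0. The protease bars reach 439 to 515 CPM in control and 176 to 198 CPM with JAG1, nearly all of it Mmp14, and the inhibitor bars 847 to 853 CPM and 710 to 731 CPM.

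The protease to inhibitor ratio was 0.603, 0.554 and 0.516 in the control libraries and 0.279, 0.245 and 0.242 in the JAG1-overexpressing libraries, so that the mean with JAG1 was 0.458 times that in control. Inhibitor reads exceeded protease reads in all 6 libraries. Ratios were also taken for some of the pairs that are known to bind. Pairs with Mmp3 or Reck were left out because these genes had too few reads, and no pair with Timp3 was formed. Mmp14 to Timp2 went from 0.740 ± 0.0501 to 0.386 ± 0.0343 (SD, n = 3). Mmp2 to Timp2 went from 0.00685 ± 0.00141 to 0.00124 ± 0.000312 (SD, n = 3). Mmp9 to Timp1 was 0.0585 ± 0.00539 in control (SD, n = 3) and at least 21.5-fold lower with JAG1, where Mmp9 was under the limit of 3 reads in each library. No JAG1-overexpressing library overlapped a control library in any of these 3 pairs. Timp1 to Timp2, both inhibitors, went from 0.0841 ± 0.00405 to 0.176 ± 0.00214 (SD, n = 3). The ratios are of reads, and say nothing of how much protein or active enzyme the cells held.

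**Figure D4:**
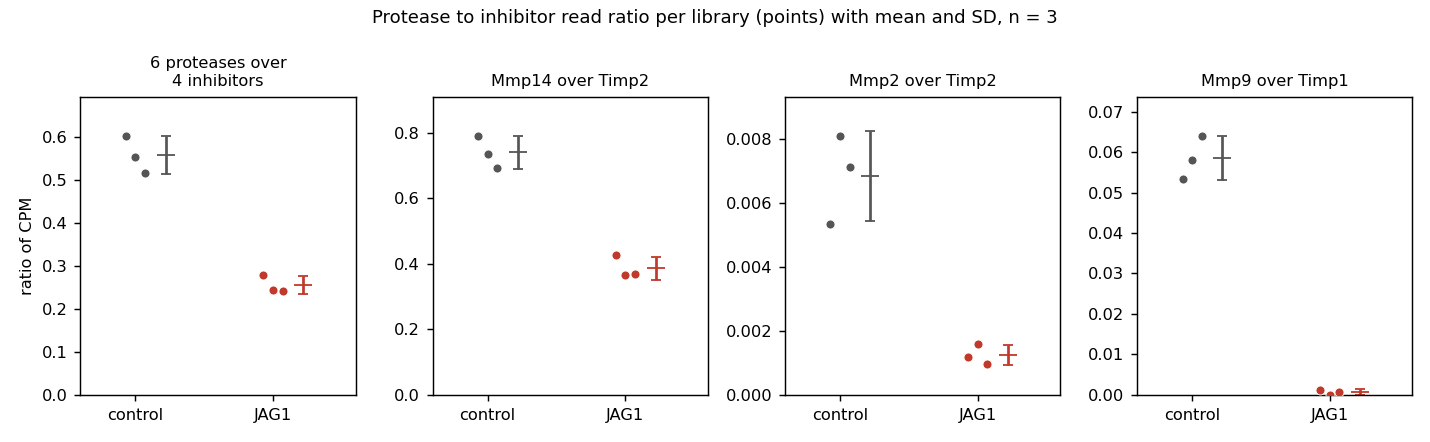
Each panel plots a ratio of CPM in each library (points, control grey, JAG1 red) beside the mean and SD, on a linear axis from 0. In all 4 panels the 3 JAG1-overexpressing libraries lie below the 3 control libraries, with means of 0.558 and 0.256 for the summed ratio and of 0.740 and 0.386 for Mmp14 over Timp2.

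Within control astrocytes the levels ran, from high to low, Timp2, Mmp14, Timp3, Timp1, Mmp11, Mmp19, Mmp2, Mmp9, Mmp3 and Reck, and no library of a gene in this order overlapped those of the next. In JAG1-overexpressing astrocytes Timp3 stood above Mmp14, at 208 to 215 CPM against 159 to 181 CPM. At the lower end, Reck, Mmp9 and Mmp3 were all under the limit of detection, and neighbours among these 3 overlapped. Euclidean distance was taken between log2 CPM over the 6 libraries, each centred on its mean. The 3 genes closest to Mmp14 were Ddr2 (0.127), Ptprk (0.136) and Ephb2 (0.138), with log2 fold changes of -1.42, -1.52 and -1.35. Those closest to Timp2 were Cog4 (0.0281), Sympk (0.0447) and Aars (0.0462), with log2 fold changes of -0.48, -0.46 and -0.49. This distance largely follows the difference between the groups, and joint regulation was not tested.

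The other MMP and TIMP genes of the mouse were mostly silent in these cells. Of 18, 13 had at most 3 reads in every library, among them Timp4, and 2 had enough reads to be tested. Mmp16 (chr4:17852893-18119145), a membrane-type MMP related to Mmp14, had 0 reads in each control library and 220, 127 and 136 reads, or 9.32 ± 1.44 CPM (SD, n = 3), in JAG1-overexpressing libraries. It was at least 57.9-fold higher (edgeR adjusted p = 1.26e-07) and reached the minimum for testing through the JAG1-overexpressing libraries alone. Mmp24 (chr2:155775342-155818366), the second most abundant MMP transcript here and also membrane-bound, had 60.7 ± 2.01 and 67.7 ± 3.53 CPM (SD, n = 3), with a log2 fold change of 0.16 (95% interval of the difference 0.02 to 0.30) and an edgeR adjusted p of 0.0574. It passed the test with library size alone (adjusted p = 0.0358), without control replicate 1 (adjusted p = 0.0380) or without JAG1-overexpressing replicate 2 (adjusted p = 0.0476). Counted over the transmembrane genes Mmp14, Mmp15, Mmp16 and Mmp24, a grouping chosen after their values were seen, the sum went from 506 ± 38.6 to 244 ± 13.2 CPM (SD, n = 3). Mmp24 supplied 11.3 ± 0.456% of all MMP reads in control and 25.9 ± 1.87% with JAG1, and Mmp16 supplied none in control and 3.56 ± 0.384% with JAG1 (SD, n = 3).

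Plasmin, made from plasminogen at the cell surface, is a known activator of several proMMPs. Of 11 genes of plasminogen activation, 7 were tested, 3 rose and 1 fell, where 27.4% of all tested genes rose and 27.7% fell. Plau, the urokinase-type activator, had 104, 98 and 108 reads in control and 15, 6 and 17 reads with JAG1. Its log2 fold change was -2.84 (SE 0.24, edgeR adjusted p = 2.26e-06). Plau reached the minimum of reads for testing in every control library but not in every JAG1-overexpressing library. Its receptor Plaur went the other way, from 28.7 ± 9.37 to 65.2 ± 10.0 CPM (SD, n = 3, edgeR adjusted p = 2.57e-04), as did Plat, the tissue-type activator, from 20.8 ± 4.94 to 39.4 ± 3.64 CPM (SD, n = 3, edgeR adjusted p = 2.70e-04), and the plasminogen receptor Plgrkt, from 17.6 ± 2.48 to 35.7 ± 0.720 CPM (SD, n = 3, edgeR adjusted p = 6.66e-06). Plgrkt lies on chromosome 19, whose tested genes had a median log2 fold change of 0.61. The median over the 7 genes was 0.10 on the log2 scale, against 0.0039 over all tested genes.

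Of 26 genes that activate, dock or clear MMPs, 14 were tested, 6 rose and 4 fell, against 27.4% and 27.7% of all tested genes, with a median log2 fold change of 0.04. Without control replicate 2, 2 fell. The largest rises were those of Cldn1, a tight junction protein that can bind proMmp2, with a log2 fold change of 2.14 (SE 0.19, edgeR adjusted p = 2.53e-06), of Cd44, a hyaluronan receptor that holds Mmp9 at the cell surface, with 0.71 (SE 0.06, edgeR adjusted p = 1.83e-06), and of the integrin chain Itgav, with 0.48 (SE 0.07, edgeR adjusted p = 1.33e-04). Cd44 thus rose where Mmp9 fell below detection. The largest falls were those of Thbs1, a matricellular protein, from 93.1 ± 9.90 to 50.2 ± 2.35 CPM, and of Ctsd, a lysosomal protease, from 572 ± 27.5 to 427 ± 8.19 CPM (SD, n = 3 for both). Lrp1, the receptor that clears MMP and TIMP complexes, fell by 0.26 on the log2 scale (SE 0.0950, edgeR adjusted p = 0.0377), a call lost without control replicate 2 (adjusted p = 0.0855), without JAG1-overexpressing replicate 2 (adjusted p = 0.0975) or without JAG1-overexpressing replicate 3 (log2 fold change -0.15, adjusted p = 0.140).

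Of 26 transcription factors known to act on promoters of MMP and TIMP genes, 24 were tested, 15 rose and 8 fell, against 27.4% and 27.7% of all tested genes, with a median log2 fold change of 0.48. The largest rises were those of Egr1 (log2 fold change 1.86, SE 0.10), Snai2 (1.80, SE 0.21) and the ETS factor Etv4 (1.69, SE 0.08). The largest falls were those of Jund, an AP-1 subunit (-1.47, SE 0.07), Snai1 (-1.39, SE 0.09) and Zeb1 (-1.31, SE 0.10). All 6 passed the edgeR test, with an adjusted p of at most 2.26e-05. Snai1 and Snai2, related repressors of epithelial genes, thus moved in opposite directions. Other factors of the list are given, outside the rule for naming, because the study and the AP-1 letters above bear on them. Twist1 had 9.53 ± 1.20 and 11.4 ± 1.66 CPM (SD, n = 3), with a log2 fold change of 0.26 (95% interval of the difference -0.04 to 0.56) and an edgeR adjusted p of 0.128, which was 0.0451 without JAG1-overexpressing replicate 2. Zeb2 rose by 1.17 on the log2 scale (SE 0.13, edgeR adjusted p = 2.26e-05). The AP-1 subunits moved both ways. Fosl1, on chromosome 19, rose by 1.07 on the log2 scale (edgeR adjusted p = 1.97e-07) and Jun by 0.21 (adjusted p = 0.0206). Fosl2 fell by 0.88 (edgeR adjusted p = 4.58e-07) and Junb by 0.57 (adjusted p = 0.00247), as did Jund above, and Fos and Fosb had too few reads to be tested. The call of Jun was lost without control replicate 2, JAG1-overexpressing replicate 1 or JAG1-overexpressing replicate 3 (adjusted p of 0.0546, 0.0815 and 0.0869).

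**Figure D5:**
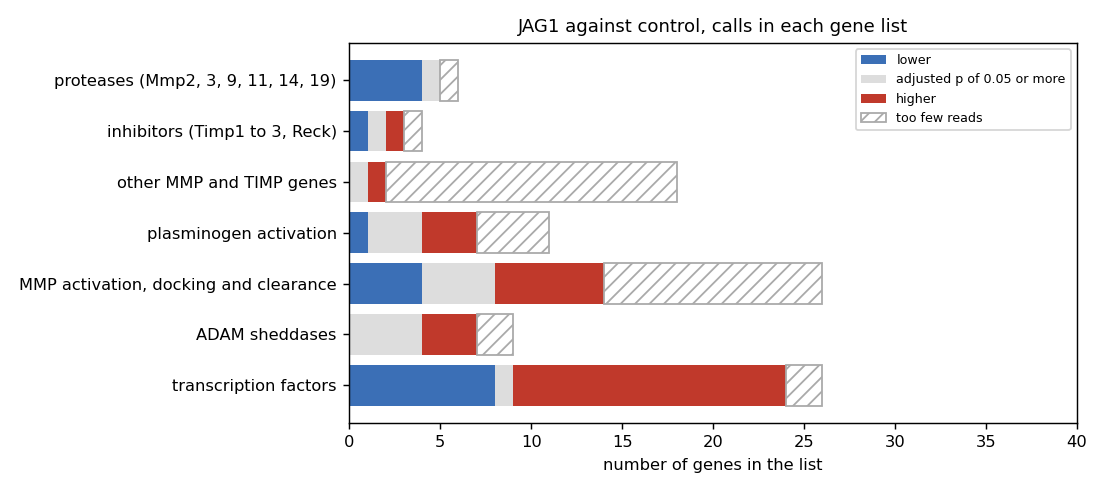
For each gene list (rows), bars count the genes that were lower (blue), did not pass an adjusted p of 0.05 (grey) or were higher (red) in JAG1-overexpressing against control astrocytes, and the hatched part counts those with too few reads to be tested. The protease row has 4 falls among 5 tested, 2 of them (Mmp2 and Mmp9) tested through the control libraries alone, and the transcription factor row has 15 rises and 8 falls, where 27.7% of all tested genes fell and 27.4% rose.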

How the data were processed

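RNA of 3 control and 3 JAG1-overexpressing libraries was made into QuantSeq 3' mRNA libraries. The authors deposited 1 table per library with the raw read counts per gene and a log2 value normalized by them. The submitters' notes name Bowtie2, bedtools and edgeR and the build GRCm38 (mm10); versions, annotation, strand setting and the normalization are not given in the sources used here. The counts were used throughout, and the deposited log2 values in 1 alternative. In R 4.3.3, edgeR 4.0.16 kept genes by filterByExpr with a minimum count of 10, normalized by TMM and compared the groups over all genes by its quasi-likelihood test; a gene was called at a Benjamini-Hochberg adjusted p under 0.05, and standard errors were taken from the F statistic. The script was checked on simulated data. With 3 libraries per group an exact two-sided permutation p cannot go under 0.1. Positions and overlaps came from GENCODE M21 and start regions from RefSeq. The genes and lists were chosen with earlier results of these data known, so no p was adjusted over a list. All 10 genes are named, with Jag1 and Cdkn2a, absent astrocyte markers, and those genes overlapping the 10 that have deposited counts. Cep295nl, Gm47093 and Gm27265, which overlap Timp2, Mmp19 and Reck, have no counts under these symbols. From each companion list, up to 3 called genes each with the largest rise and fall at a mean of at least 1 CPM are named. Others were named after their values were seen. Alternatives used DESeq2 1.42.0, limma 3.58.1, other normalizations and filters, a replicate block and left-out libraries.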

Additional observations from a re-analysis of the deposited data

How the results depend on the processing

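All 8 tested genes of the system kept their direction and their side of the threshold under the 14 alternatives run for each, with Mmp14 between -1.47 and -1.35, Mmp2 between -3.12 and -2.80, Mmp11 between -0.69 and -0.51, Timp1 between 0.53 and 0.62 and Timp2 between -0.50 and -0.46 on the log2 scale. So did the values of Jag1 and, other than Zeb2, the tested genes named from the other MMP, plasminogen, activation, ADAM and transcription factor lists, except for 3 values each of Lrp1, Mmp24 and Jun and 1 each of Adam9, Adam17 and Twist1. Zeb2 was not run under the alternatives. Without the filter on low counts, Mmp3 could be tested and passed (edgeR adjusted p = 0.0109), and Reck did not (adjusted p = 0.693). The protease to inhibitor ratio with JAG1 was 0.458 times that in control. It was 0.679 times without Mmp14, 0.336 times without Timp2, 0.268 times as a difference of mean log2 CPM over the tested genes, where Mmp9 is under detection and depends on the prior count, and 0.410 times on that scale without Mmp9. With every MMP gene against every TIMP gene and Reck it was 0.576 times; these last 2 alternatives were chosen after seeing the data, and without each library in turn it ran from 0.437 to 0.478. Same-numbered libraries of both groups share only a number in the labels. Their deviations from the group means correlated at 0.148, 0.0614 and 0.119 across genes, each library best with its own number, which is a hint from the data and not the design. With the replicate block, 3380 genes were higher and 3331 lower, against 3211 and 3247 without it, and 1 and 5 of the 10 genes. Depth limits Reck, Mmp3 and Mmp9, and the overlap with Tmem198b limits Mmp19.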

Other observations

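Genes of the ADAM family were read from a list of 9 genes. Some of them encode sheddases that cut receptors and ligands such as JAG1 from the cell surface, and Timp3 inhibits some of these. Of the 7 tested, 3 rose and none fell, where 27.4% of all tested genes rose and 27.7% fell, with a median log2 fold change of 0.18. The rises numbered 5 without control replicate 1 and 2 with DESeq2. Adam10 had 652, 671 and 714 reads in control and 852, 697 and 723 reads with JAG1, a log2 fold change of 0.35 (SE 0.08, edgeR adjusted p = 0.00353). Adam8 rose from 1.30 ± 0.291 to 2.73 ± 0.610 CPM (SD, n = 3, edgeR adjusted p = 0.00442). Adam17, the most abundant of the list, had 190 ± 10.3 and 207 ± 19.6 CPM (SD, n = 3, edgeR adjusted p = 0.164, and 0.0491 without control replicate 1). Adam9 had 45, 208 and 394 reads in control and 554, 710 and 673 reads with JAG1, so that the control libraries differed widely among themselves. Its log2 fold change was 1.79 (edgeR adjusted p = 0.00761) and ran from 1.28 to 2.56 over the alternatives, and DESeq2 gave an adjusted p of 0.0588.

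A few genes of matrix turnover had too few reads to be tested. Hpse, the heparanase that cuts heparan sulfate chains, had 13, 10 and 7 reads in control and 0 reads in each JAG1-overexpressing library, at least 2.49-fold lower. Mmp17, a membrane-type MMP, had 7, 6 and 14 reads in control and 2, 2 and 3 with JAG1. Mmp13, a collagenase, had 4, 4 and 19 reads in control and 0, 8 and 1 with JAG1, and the groups overlapped. These genes were named after their values were seen.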
